A study of Mus musculus with 2 samples.

Results

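Natural killer (NK) cells sorted from MC38 tumours of refed mice were compared with NK cells sorted from the tumours of fasted mice. The cells were those that the authors' hashtag classification gave to 1 population and whose hashtag the tag list names as the refed or the fasted tumour population. They were 95 refed and 801 fasted cells, 896 of the 7479 cells with a single hashtag and of the 13118 cells in the count matrix. The authors called 5606 other cells doublets, and 33 had no classification.

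The mice of both groups were C57BL/6, 12 weeks old, and carried subcutaneous tumours of MC38, a mouse colon carcinoma line. The labels name an unrestricted diet and a diet of fasting cycles, and the tag list names a fasted, a refed and an ad libitum (AL) population for tumour, spleen and bone marrow. How long the mice fasted, how long they had been refed and how many mice were pooled is not stated in the labels or files used here. Tumours were digested with DNase I and collagenase 4, and sorted cells were negative for lineage markers and positive for NK1.1 and CD49b. All populations were stained with hashtag antibodies, mixed and captured in 1 droplet lane. Each population carried 1 hashtag and is 1 sample. The differences below therefore stand without replicates and carry no test, and a difference between mice or tumours cannot be told apart from 1 between diets.

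NK cells are innate lymphocytes. They kill infected or malignant targets with granules of perforin and granzymes, and they secrete interferon gamma and chemokines. Fasting raises circulating glucocorticoid hormones and fatty acids and lowers glucose and insulin, and feeding turns these round. In lymphocytes, low growth-factor and insulin signalling lets FOXO transcription factors keep genes of rest and homing active, while nutrient supply and activation favour glycolysis, sterol synthesis and protein secretion. Within tumours, NK cells also meet low oxygen, interferons and TGF-beta.

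The populations were told apart by the 15-base barcodes of their hashtag antibodies, which are the sequences that assign every cell below to its feeding group.
Refed tumour, hashtag B0302: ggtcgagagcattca
Fasted tumour, hashtag B0301: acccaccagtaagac
Ad libitum tumour, hashtag B0303: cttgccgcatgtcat

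Values are counts of unique molecular identifiers (UMIs, 1 per captured RNA molecule). Each cell was scaled to 1000000 UMIs, and a level is the mean over the cells of a population, in counts per 1000000 UMIs (CPM). A difference is the log2 ratio, refed over fasted, of mean CPM + 5, which understates the difference of low genes. The refed cells were deeper, with a median of 7999 UMIs (719 to 44889) against 5346 in fasted cells (698 to 85495). Summed UMIs were 1270035 and 6178668 for refed and fasted tumour cells. After thinning to 2000 UMIs a cell, which 85 of 95 refed and 723 of 801 fasted cells allowed, the median number of genes per cell was 886 in refed and 888 in fasted cells. Mitochondrial genes took a median of 2.46% of UMIs in refed and 2.27% in fasted cells. The ad libitum tumour population had 46 cells, which leaves its levels the least certain.

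The cells carried NK markers in both groups. All 10 NK markers (among them Ncr1, Klrb1c, Eomes, Nkg7 and Prf1) were detected, with a summed level of 14699 CPM in refed and 17663 CPM in fasted cells. Markers of other cells were present too. Monocyte or macrophage markers summed to 774 CPM in refed and 1100 CPM in fasted cells, and 22.1% of refed and 12.0% of fasted cells had 3 or more UMIs of them. These markers include Lyz2 and Ctss, which NK cells can carry. With those 2 not counted, 6 of 95 refed and 38 of 801 fasted cells had 3 or more UMIs of macrophage or neutrophil markers. Neutrophil markers summed to 19.8 CPM in refed and 359 CPM in fasted cells, with 7 of 10 at 0 in refed cells, Camp, Ngp, Lcn2 and Ltf among them. Only 13 fasted cells (1.62%) and 0 refed cells had 3 or more UMIs of neutrophil markers, and the fasted cells were far more numerous. B cell markers summed to 140 CPM in refed and 82.05 CPM in fasted cells, with 3 or more UMIs in 24.2% of refed and 10.4% of fasted cells. Of the 7 B cell markers in the matrix, 4 were at 0 in refed cells (Cd79a, Ms4a1, Ebf1 and Iglc2) and 2 in fasted cells. For dendritic cell markers the share was 14.7% of refed and 5.49% of fasted cells, and for fibroblast or endothelial markers 11.6% of refed and 4.99% of fasted cells. Of 10 dendritic cell markers, 4 were at 0 in refed and 4 in fasted cells. Of 8 fibroblast or endothelial markers, 6 were at 0 in refed cells (Col1a1 and Cdh5 among them) and 1 in fasted cells. The part of depth in these shares of cells was not tested. T cell markers summed to 906 CPM in refed and 916 CPM in fasted cells, with 3 or more UMIs in 77.9% of refed and 67.4% of fasted cells. Of these 11 markers, 4 were at 0 in refed cells (Cd4, Cd8a, Cd8b1 and Cd5) and 1 in fasted cells. Whether the cells with these UMIs were T cells was not tested, so the shares are not read as shares of T cells. Of the 7 epithelial markers that MC38 cells could add, 6 were at 0 in refed cells, and the sums were 1.61 CPM in refed and 3.73 CPM in fasted cells.

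Of 5476 genes with at least 20 CPM in either population, 151 (2.76%) were at least 2-fold higher and 176 (3.21%) at least 2-fold lower in refed cells, with a median log2 ratio of -0.02 over all genes. The summed counts gave 34 higher and 65 lower genes. Refed tumour NK cells had higher levels of the granzyme genes Gzmc, Gzmd and Gzmg, of Spp1, of the membrane proteins Ifitm2 and Ifitm3, and of genes of sterol synthesis, glycolysis and protein folding. They had lower levels of the chemokine receptor Cxcr4, the glucocorticoid-induced Tsc22d3, the survival gene Bcl2, the receptor Ahr and a group of genes of resting lymphocytes. Named genes had at least 50 CPM in 1 of the populations and passed 2-fold in the mean over cells, in the summed counts and without the highest cell. The rule held for 10 genes higher in refed cells, all named here, and for 18 lower ones, of which the 12 with the largest differences are named. Across 18 other ways of processing, 8 of the 10 higher and 12 of the 12 lower genes kept 1 sign, and 4 and 6 of them stayed past 2-fold throughout. These 18 are not all separate checks. Summed counts and the highest cell left out belong to the naming rule itself. Other minimum levels leave a gene's ratio unchanged, and other pseudocounts leave its sign unchanged.

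**Figure D1:**
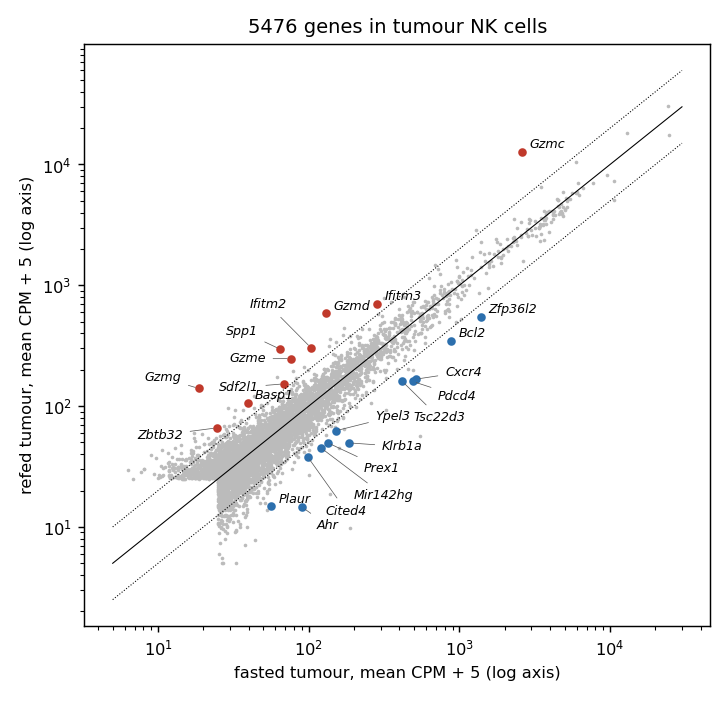
Mean level of each of 5476 genes in refed (vertical axis) and fasted (horizontal axis) tumour NK cells, in CPM + 5 on log axes, with 1 point per gene. The solid line marks equal levels and the dotted lines 2-fold differences. Gzmc stands highest among the red named genes, at 12718 CPM in refed and 2593 CPM in fasted cells, while the blue named genes Ahr and Plaur lie lowest.

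Of the 10 named higher genes, 4 were granzyme genes of the chromosome 14 cluster. Gzmc, which encodes granzyme C of activated killer cells, lies at chr14:56231441-56234656 on the minus strand (mm10, GENCODE M21). Its mean was 12718 CPM in refed, 2593 CPM in fasted and 8778 CPM in ad libitum tumour cells (log2 ratio refed over fasted 2.29). Between cells the quartiles were 0, 627 and 15904 CPM in refed cells and 0, 0 and 366 CPM in fasted cells, so the populations overlapped over their whole range and differed in how many cells stood high. After thinning, Gzmc was seen in 58.8% of refed cells (47.6 to 69.4, exact binomial 95% interval) and 32.0% of fasted cells (28.6 to 35.5), against 17.5% of naive spleen NK cells of the same lane. All intervals given here cover counting error only. In the summed counts, which give weight to deep cells, the Gzmc log2 ratio was 1.27 (1.25 to 1.29).

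Its neighbours followed the same direction with far fewer cells. Gzmd (chr14:56129556-56132608) averaged 582 CPM in refed, 126 CPM in fasted and 1239 CPM in ad libitum cells (log2 ratio 2.16). It was seen in 16.5% of thinned refed and 4.70% of thinned fasted cells, and in 1.62% of naive spleen cells. Gzme (chr14:56117626-56120625) averaged 242 CPM in refed, 70.9 CPM in fasted and 520 CPM in ad libitum cells (log2 ratio 1.70). Gzmg (chr14:56156582-56159579) averaged 135 CPM in refed, 13.6 CPM in fasted and 65.2 CPM in ad libitum cells (log2 ratio 2.91), but 1 refed cell held 76.2% of its refed UMIs. All of these genes are close relatives in sequence, and reads shared among them cannot be assigned with certainty.

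The 4 granzyme genes differed in how they stood under other choices of cells. Among cells of 4000 to 16000 UMIs the log2 ratio was 2.91 for Gzmc, 1.96 for Gzmd, -1.21 for Gzme and -0.09 for Gzmg. Without cells above 3 times their population's median UMIs, the ratios of Gzmc, Gzmd, Gzme and Gzmg were 3.25, 2.10, -0.74 and 2.67. With equal weight to each of the authors' clusters that had 10 or more cells on both sides, Gzmc was at 0.64, Gzmd at 0.27, Gzme at -0.18 and Gzmg at 1.33.

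The wider cytotoxic machinery was not higher as a group. Of 19 measured cytotoxic genes, 10 were higher and 9 lower in refed cells, 4 past 2-fold higher (the granzymes above, against 2.76% of all genes), with a median of 0.09 that lay between -0.08 and 0.32 under the alternatives. Gzmb, the main granzyme of activated NK cells, averaged 6484 CPM in refed, 3492 CPM in fasted and 4366 CPM in ad libitum cells (log2 ratio 0.89). Prf1, which encodes the pore-forming perforin, averaged 431 CPM in refed, 221 CPM in fasted and 371 CPM in ad libitum cells (log2 ratio 0.95). Gzma, the granzyme of resting NK cells, averaged 7331 CPM in refed and 10584 CPM in fasted cells (log2 ratio -0.53). The granule genes Nkg7 and Srgn had log2 ratios of 0.11 and 0.00.

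**Figure D2:**
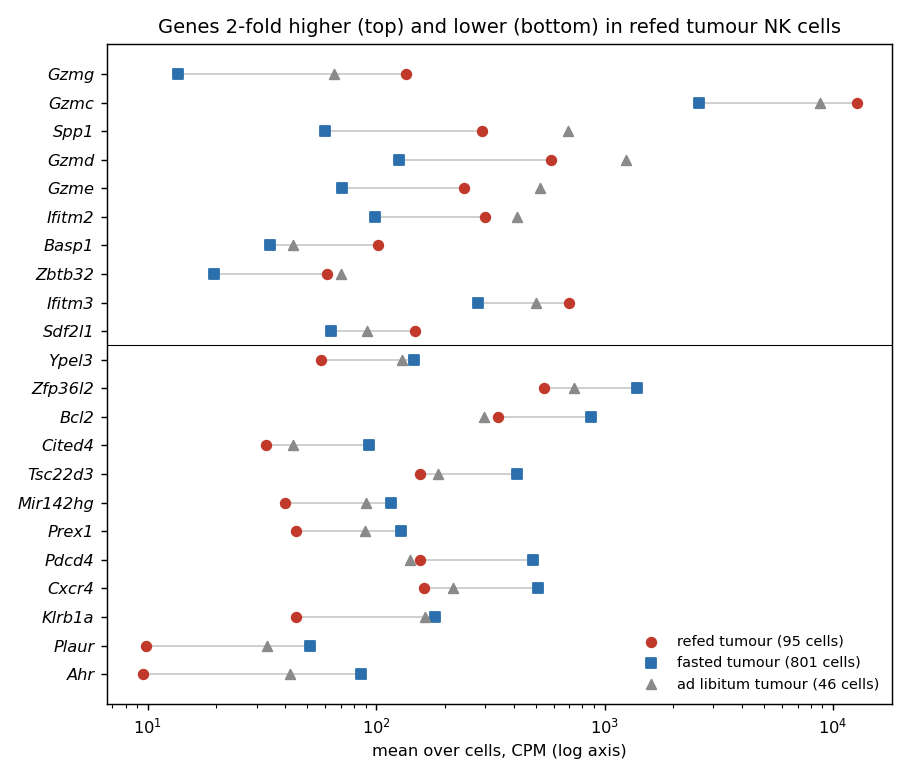
Mean level over cells, in CPM on a log axis, of the 10 named genes higher (top) and the 12 lower (bottom) in refed tumour NK cells. Red circles are refed (95 cells), blue squares fasted (801 cells) and grey triangles ad libitum tumour cells (46 cells). Ad libitum Cxcr4 (218 CPM), Tsc22d3 (187 CPM) and Bcl2 (296 CPM) lie nearer to refed than to fasted levels, and ad libitum Klrb1a (163 CPM) lies nearer to the fasted level.

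Among secreted proteins, Spp1 and Xcl1 were higher and Ccl5 lower in refed cells. Spp1, which encodes osteopontin, averaged 291 CPM in refed, 59.5 CPM in fasted and 694 CPM in ad libitum cells (log2 ratio 2.20). It was detected in 17 of 85 thinned refed cells and in 6.36% of thinned fasted cells, against 2.44% of naive spleen cells, and its ratio lay between 1.35 and 4.85 under every alternative. Xcl1, a chemokine that draws in cross-presenting dendritic cells, averaged 2873 CPM in refed and 1277 CPM in fasted cells (log2 ratio 1.17). Ccl5, which attracts T cells and myeloid cells, averaged 5080 CPM in refed and 10602 CPM in fasted cells (log2 ratio -1.06). Ifng, the gene of interferon gamma, averaged 666 CPM in refed, 448 CPM in fasted and 323 CPM in ad libitum cells, a log2 ratio of 0.57. Of 10 measured cytokine and chemokine genes 7 were higher and 3 lower, with a median of 0.33 in the mean over cells and -0.06 in the summed counts.

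Of the 29 genes induced by interferons, 22 were higher and 7 lower in refed cells, but only the Ifitm genes and Ly6a passed 2-fold (against 2.76% of all genes that were 2-fold higher), and the median was 0.26 (0.03 to 0.53 under the alternatives). Ifitm3, a membrane protein that blocks viral entry, averaged 701 CPM in refed, 280 CPM in fasted and 500 CPM in ad libitum cells (log2 ratio 1.31, at chr7:141009586-141010770). Ifitm2 averaged 299 CPM in refed, 98.5 CPM in fasted and 415 CPM in ad libitum cells (log2 ratio 1.55, at chr7:140954837-140955987). Both were rare in naive spleen cells, at 1.62% and 0.947% of thinned cells for Ifitm3 and Ifitm2. Thinned refed cells held Ifitm3 in 34.1% and Ifitm2 in 21.2%, against 15.8% and 7.33% of fasted cells. Ly6a, the stem cell antigen Sca-1, averaged 376 CPM in refed and 183 CPM in fasted cells (log2 ratio 1.02), and was seen in 48.2% of refed and 15.2% of fasted thinned cells. Ifitm1 averaged 170 CPM in refed and 56.5 CPM in fasted cells, with 49.5% of its refed UMIs in 1 cell. The classical antiviral genes Ifit1 and Rsad2 had log2 ratios of 0.03 and 0.01. The Ifitm genes are near-identical neighbours, so their split is uncertain.

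The other named higher genes were Basp1, Zbtb32 and Sdf2l1. Basp1, a membrane-associated signalling protein, averaged 102 CPM in refed, 34.5 CPM in fasted and 43.2 CPM in ad libitum cells (log2 ratio 1.44). Zbtb32, a transcriptional repressor that proliferating NK cells use in viral infection, averaged 61.0 CPM in refed, 19.5 CPM in fasted and 69.9 CPM in ad libitum cells (log2 ratio 1.43). Sdf2l1, a chaperone partner in the endoplasmic reticulum, averaged 148 CPM in refed, 63.2 CPM in fasted and 90.9 CPM in ad libitum cells (log2 ratio 1.16). Basp1 and Zbtb32 stayed past 2-fold in every alternative, as did Spp1 and Ifitm3, while Sdf2l1 ranged from 0.62 to 1.38.

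Sterol and fatty acid synthesis had the highest list median. Of 12 measured genes, 11 were higher in refed cells, 7 of them past 2-fold, against 2.76% of all genes, and none was 2-fold lower. The median log2 ratio was 1.21 and stayed between 0.81 and 1.36 under all alternatives. Among enzymes of cholesterol synthesis, Cyp51 averaged 49.7 CPM in refed and 12.4 CPM in fasted cells (log2 ratio 1.65). Sqle averaged 22.4 CPM in refed and 4.37 CPM in fasted cells (1.55). Fdps averaged 28.3 CPM in refed and 7.46 CPM in fasted cells (1.42). Acly, which makes acetyl-CoA from citrate, was the exception at 38.0 CPM in refed and 43.8 CPM in fasted cells. These transcripts were sparse, with 23 UMIs of Sqle in the 95 refed and 40 in the 801 fasted cells. Cyp51, Sqle and Fdps reached the 20 CPM minimum only in refed cells. Listed genes under the minimum in both populations (Fdft1, Lss, Srebf1, Srebf2, Fasn, Acaca and Scd1) had log2 ratios between -0.20 and 0.15. Between clusters the median was 1.21 in cluster 0 and 0.90 in cluster 11, and it was 0.13 in spleen and 0.26 in bone marrow.

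Glycolysis genes were higher as well. Of 14 measured genes, 13 were higher in refed cells, 6 of them past 2-fold, against 2.76% of all genes, and none was 2-fold lower, with a median of 0.79 (0.52 to 0.98 under the alternatives). Gapdh averaged 1477 CPM in refed, 682 CPM in fasted and 1616 CPM in ad libitum cells (log2 ratio 1.11). Its cell quartiles were 683, 1390 and 1736 CPM in refed and 206, 488 and 961 CPM in fasted cells, so most refed cells stood above the fasted median. Pgam1, phosphoglycerate mutase, averaged 352 CPM in refed, 134 CPM in fasted and 217 CPM in ad libitum cells (log2 ratio 1.36). Tpi1 averaged 386 CPM in refed and 164 CPM in fasted cells (1.21). Ldha, which makes lactate, averaged 727 CPM in refed and 348 CPM in fasted cells (1.05). Hk2, the inducible hexokinase, averaged 88.0 CPM in refed and 27.2 CPM in fasted cells (1.53), but 0.49 without the highest cell of each population and -2.77 when cells with markers of other types, T cells included, were left out, a setting that removed 80 refed and 613 fasted cells. In the summed counts Gapdh, Pgam1, Tpi1 and Hk2 stayed higher but under 2-fold (0.75, 0.95, 0.84 and 0.56). Slc16a3, also past 2-fold in the mean over cells (1.04), reached the 20 CPM minimum only in refed cells. The list medians were 0.98 in cluster 0 and 0.23 in cluster 11. For ad libitum over fasted tumour cells, which share the fasted cells with this comparison, the median was 0.79.

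Hypoxia-inducible factor switches on many glycolysis genes through the core motif ACGTG. Of 16 glycolysis genes with a promoter in RefSeq (GRCm38.p6, 250 bases upstream of the start), 8 held it on either strand (50%), and so did 12 of 15 hypoxia genes (80%), against 4998 of 27025 promoters (18.5%). The promoters of Pgam1, a glycolysis gene past 2-fold, and Ankrd37, a hypoxia gene past 2-fold, show its position in capitals.
Pgam1 (chr19:41911621-41911870, plus strand, mm10): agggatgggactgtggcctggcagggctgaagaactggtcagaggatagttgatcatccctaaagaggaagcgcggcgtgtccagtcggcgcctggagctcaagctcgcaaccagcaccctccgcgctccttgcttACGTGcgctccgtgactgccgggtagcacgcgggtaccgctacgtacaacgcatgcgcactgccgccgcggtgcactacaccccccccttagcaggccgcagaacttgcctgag
Ankrd37 (chr8:45999851-46000100, minus strand, mm10): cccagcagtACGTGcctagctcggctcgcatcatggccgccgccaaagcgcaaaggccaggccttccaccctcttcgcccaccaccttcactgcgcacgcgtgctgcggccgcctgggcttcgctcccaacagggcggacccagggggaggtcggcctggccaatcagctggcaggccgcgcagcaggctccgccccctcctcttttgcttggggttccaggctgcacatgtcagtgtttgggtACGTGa

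The hypoxia genes themselves were mixed. Of 12 measured genes 9 were higher and 3 lower in refed cells, with a median of 0.26 (0.02 to 0.60 under the alternatives) that was -0.16 within cluster 0. Ero1l, an oxidase of the endoplasmic reticulum, averaged 87.2 CPM in refed and 31.5 CPM in fasted cells (log2 ratio 1.34). Ankrd37 averaged 21.6 CPM in refed and 5.58 CPM in fasted cells (1.33), but -0.82 in the setting that turned Hk2 round. Vegfa, the angiogenic factor, was alike in level at 265 CPM in refed and 250 CPM in fasted cells (0.09). A motif in a promoter is a description of its letters and shows no binding in these cells. The glycolysis and hypoxia lists were chosen by pathway, so their shares with ACGTG describe the lists and not refed against fasted cells.

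Genes of protein folding and of the unfolded protein response in the endoplasmic reticulum were higher in refed cells for 13 of 14 members, with 5 past 2-fold (against 2.76% of all genes) and a median of 0.86 (0.51 to 1.04 under the alternatives). Calr, the calcium-binding chaperone calreticulin, averaged 786 CPM in refed, 309 CPM in fasted and 558 CPM in ad libitum cells (log2 ratio 1.33). Its cell quartiles were 198, 523 and 989 CPM in refed and 0, 193 and 447 CPM in fasted cells, so the refed median lay above the fasted upper quartile. The disulphide isomerase Pdia6 averaged 310 CPM in refed and 131 CPM in fasted cells (1.21). Pdia4 averaged 90.7 CPM in refed and 38.6 CPM in fasted cells (1.14). Hspa5, the chaperone BiP, averaged 1142 CPM in refed and 626 CPM in fasted cells (0.86). Hsp90b1, the chaperone GRP94, averaged 578 CPM in refed and 285 CPM in fasted cells (1.01). Herpud1, of the degradation branch, was the 1 lower member at 46.2 CPM in refed and 79.2 CPM in fasted cells (-0.72). In the summed counts Calr, Pdia6 and Pdia4 stayed higher but under 2-fold (0.82, 0.81 and 0.94), while Sdf2l1 was at 1.11. The lowest list median, 0.51, was the one without cluster 11. This list was also higher in refed cells of spleen (median 0.49) and bone marrow (0.48).

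The factors ATF6 and XBP1 act through the endoplasmic reticulum stress element, searched here as CCAAT, 9 bases of any kind, then CCACG on both strands of the same promoters. It stood in 6 of the 13 listed genes with a promoter (46.2%), namely Hspa5, Hsp90b1, Calr, Pdia6, Creld2 and Dnajc3, against 35 of 27025 promoters (0.13%). The list was chosen as genes of this response, so the share describes the list and not refed against fasted cells. The pattern CCAAT and its spaced partner are in capitals in the 4 promoters below, which read CGTGG and ATTGG where the element lies on the other strand. Over all promoters, matches of the stress element and of ACGTG shared bases in 6 genes.
Calr (chr8:84846932-84847181, minus strand, mm10): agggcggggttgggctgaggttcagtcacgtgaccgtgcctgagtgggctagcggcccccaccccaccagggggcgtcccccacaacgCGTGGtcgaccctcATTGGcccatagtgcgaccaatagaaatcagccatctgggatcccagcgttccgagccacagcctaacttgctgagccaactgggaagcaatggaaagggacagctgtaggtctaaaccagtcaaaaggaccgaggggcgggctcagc
Pdia6 (chr12:17266339-17266588, plus strand, mm10): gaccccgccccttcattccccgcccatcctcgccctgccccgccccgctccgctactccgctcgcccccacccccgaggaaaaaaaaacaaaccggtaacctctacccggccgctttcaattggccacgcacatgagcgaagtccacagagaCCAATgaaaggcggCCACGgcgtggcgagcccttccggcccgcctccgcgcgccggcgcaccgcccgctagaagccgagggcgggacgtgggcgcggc
Hspa5 (chr2:34771840-34772089, plus strand, mm10): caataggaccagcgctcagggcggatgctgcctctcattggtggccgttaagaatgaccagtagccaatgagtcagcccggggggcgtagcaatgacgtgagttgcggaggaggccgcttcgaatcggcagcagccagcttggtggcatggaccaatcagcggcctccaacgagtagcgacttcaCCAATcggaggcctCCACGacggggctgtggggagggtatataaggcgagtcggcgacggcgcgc
Hsp90b1 (chr10:86705445-86705694, minus strand, mm10): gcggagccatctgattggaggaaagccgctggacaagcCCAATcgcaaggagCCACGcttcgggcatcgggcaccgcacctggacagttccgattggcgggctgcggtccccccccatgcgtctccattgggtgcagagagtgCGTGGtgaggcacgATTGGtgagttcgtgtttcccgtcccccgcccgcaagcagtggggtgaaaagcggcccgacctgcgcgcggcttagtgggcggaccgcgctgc

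Genes of DNA replication were higher too, for 15 of 15 measured S phase genes, with 2 past 2-fold (against 2.76% of all genes) and a median of 0.68. The 2 past 2-fold, Rrm1 and Tk1, reached the 20 CPM minimum only in refed cells, as did Mcm2, Rrm2 and Hells. With cells holding markers of other types, T cells included, left out, Rrm1 was at -1.06 and Tk1 at -1.65. That setting removed 80 refed and 613 fasted cells. After thinning Tk1 was at -1.25. Cdt1, under the minimum, was lower in refed cells (-0.41). Mcm5, a subunit of the replicative helicase, averaged 62.5 CPM in refed and 29.4 CPM in fasted cells (log2 ratio 0.97). Pcna, the polymerase clamp, averaged 93.8 CPM in refed and 61.3 CPM in fasted cells (0.57). With equal weight to each cluster the S phase median was 0.17, and within cluster 0 and cluster 11 it was 0.28 and 0.10. In spleen it was 0.22 and in bone marrow 0.93. The 5 measured genes of G2 and M phase had a median of 0.39, and -0.64 with equal cluster weights. Oxidative phosphorylation genes were higher for 26 of 31 members with none past 2-fold and a median of 0.19. Cytosolic ribosomal proteins had a median of -0.02 (-0.23 to 0.02).

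Genes that fasting is known to raise in liver and muscle were not lower as a group in refed cells. The 14 measured genes of fatty acid oxidation were higher for 8 and lower for 6 members, with a median of 0.11 (-0.17 to 0.72 under the alternatives). PPAR targets were higher for 5 of 7 members, with a median of 0.07 (-0.08 to 0.79). Cpt1a, the gate of fatty acid entry into mitochondria, averaged 6.87 CPM in refed, 14.8 CPM in fasted and 39.8 CPM in ad libitum cells, under the 20 CPM minimum in both compared populations.

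**Figure D3:**
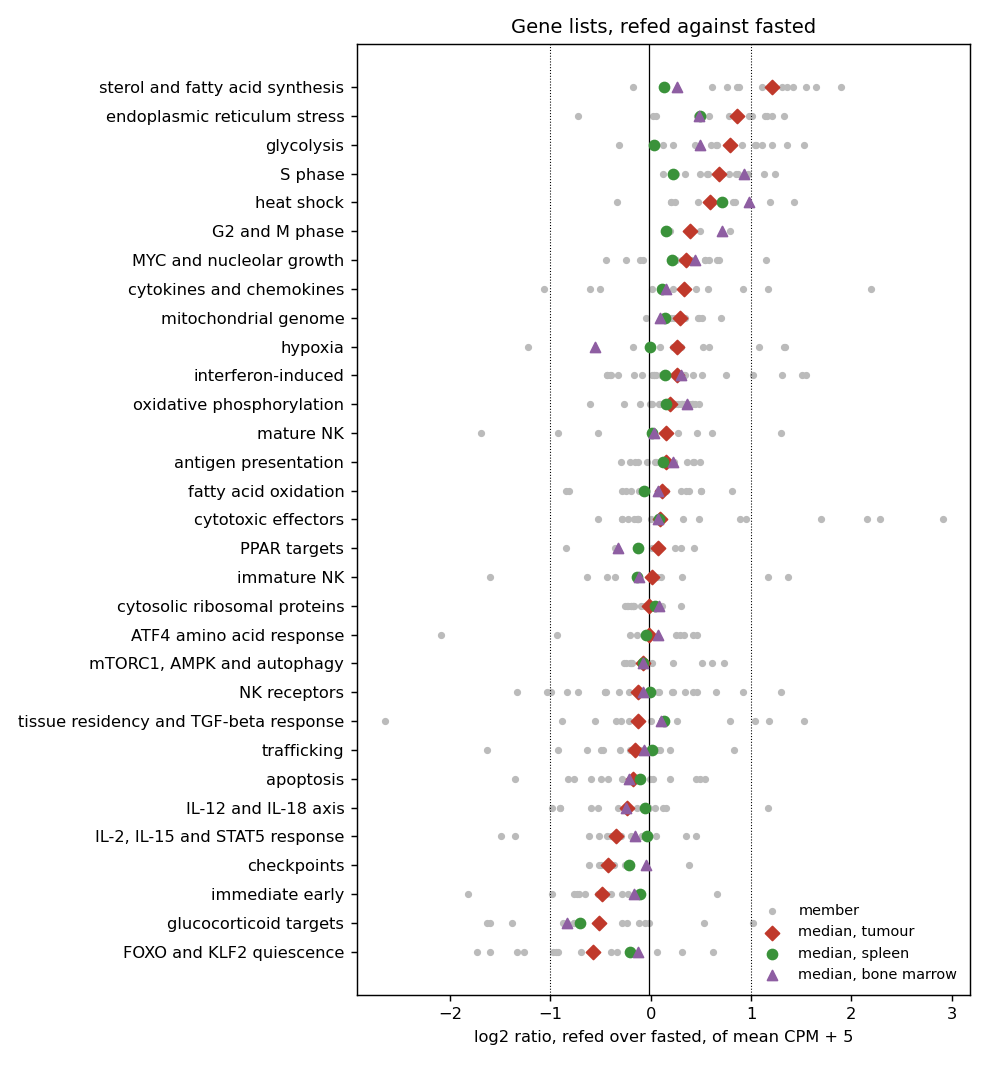
Log2 ratio, refed over fasted, of mean CPM + 5 for 31 gene lists in tumour NK cells. Grey points are the measured members, red diamonds the tumour medians, green circles the spleen medians and purple triangles the bone marrow medians, and the dotted lines mark 2-fold. Sterol and fatty acid synthesis stands at the top (tumour median 1.21, spleen 0.13) and FOXO and KLF2 quiescence at the bottom (-0.57, spleen -0.21).

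Among genes lower in refed cells, the chemokine receptor Cxcr4, which holds lymphocytes in bone marrow and hypoxic tissue, was 1 of the 12 named genes. It lies at chr1:128588199-128592293 and averaged 162 CPM in refed, 511 CPM in fasted and 218 CPM in ad libitum tumour cells (log2 ratio -1.63). The cell quartiles were 0, 0 and 244 CPM in refed and 0, 232 and 792 CPM in fasted cells. It was detected in 17 of 85 thinned refed cells (12.1 to 30.1%) and 46.6% of thinned fasted cells (42.9 to 50.3), against 3.52% of naive spleen cells. The ratio held between -1.90 and -1.17 under all alternatives. Within cluster 11, where Cxcr4 was low on both sides at 31.7 CPM in refed and 25.5 CPM in fasted cells, it was 0.27.

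Cxcr4 belongs to the 14 measured glucocorticoid targets, of which 12 were lower and 2 higher in refed cells, 3 past 2-fold lower (against 3.21% of all genes), with a median of -0.52 (-0.76 to -0.29 under the alternatives). Tsc22d3, the glucocorticoid-induced leucine zipper, averaged 155 CPM in refed, 412 CPM in fasted and 187 CPM in ad libitum cells (log2 ratio -1.38, at chrX:140539528-140600659). It was seen in 23.5% of refed and 48.1% of fasted thinned cells. Its ratio was -0.31 when all cells with markers of other cell types, T cells included, were left out. That setting removed 80 refed and 613 fasted cells. Il7r, the interleukin 7 receptor, was low at 7.62 CPM in refed and 33.2 CPM in fasted cells (-1.60). Sgk1 averaged 22.6 CPM in refed and 45.2 CPM in fasted cells (-0.87). The co-chaperone Fkbp5 averaged 19.9 CPM in refed and 37.1 CPM in fasted cells (-0.76). Il7r, which is among those past 2-fold, and Fkbp5 reached the 20 CPM minimum only in fasted cells. Il7r is also counted in the FOXO and KLF2 list below. Txnip, which restrains glucose uptake, averaged 85.4 CPM in refed and 156 CPM in fasted cells (-0.83). Mt1, a metallothionein, went the other way at 53.9 CPM in refed and 24.0 CPM in fasted cells (1.02), but -0.62 without cluster 11 and -1.02 after thinning. Pik3ip1, an inhibitor of phosphoinositide 3-kinase, stayed under the minimum level at 0.802 CPM in refed and 15.4 CPM in fasted cells. The list was lower in refed cells of spleen (median -0.70) and bone marrow (-0.83) as well, and within tumour cluster 11 its median was 0.38.

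The full glucocorticoid response element was searched as GNACA, 3 bases of any kind, then TGTNC on both strands, and its matches shared bases with the stress element in 0 genes and with ACGTG in 2. It stood in 3 of 16 listed genes with a promoter (18.8%), Sgk1, Txnip and Mt1, against 119 of 27025 promoters (0.44%). Its absence from the other windows says only that these letters are not within 250 bases upstream. The list was chosen as glucocorticoid targets, so the share describes the list and not refed against fasted cells.

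Genes of lymphocyte rest and homing under FOXO factors and KLF2 were lower in refed cells for 14 of 17 members, with 4 past 2-fold lower (against 3.21% of all genes) and a median of -0.57 (-0.73 to -0.20). The 4 past 2-fold, Klf3, Il7r, Pink1 and Ccng2, reached the 20 CPM minimum only in fasted cells. Klf2, a transcription factor of quiescence and egress, averaged 493 CPM in refed, 939 CPM in fasted and 350 CPM in ad libitum cells (log2 ratio -0.92). Btg1, which slows division, averaged 2315 CPM in refed and 3434 CPM in fasted cells (-0.57). Klf3 averaged 5.64 CPM in refed and 30.2 CPM in fasted cells (-1.73). Ccng2 averaged 10.5 CPM in refed and 32.2 CPM in fasted cells (-1.26). The cell cycle inhibitor Cdkn1b averaged 40.4 CPM in refed and 82.1 CPM in fasted cells (-0.94). Sesn3 was the most contrary member at 92.7 CPM in refed and 58.3 CPM in fasted cells (0.62).

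The named lower genes Bcl2, Zfp36l2 and Pdcd4 act in survival, RNA decay and translation. Bcl2, the anti-apoptotic gene that interleukin 15 sustains in NK cells, averaged 341 CPM in refed, 875 CPM in fasted and 296 CPM in ad libitum cells (log2 ratio -1.35, at chr1:106538178-106714274). Its cell quartiles were 69.8, 202 and 467 CPM in refed and 251, 676 and 1182 CPM in fasted cells, so the refed upper quartile lay below the fasted median. Zfp36l2, a protein that promotes decay of AU-rich messenger RNAs, averaged 543 CPM in refed, 1392 CPM in fasted and 736 CPM in ad libitum cells (log2 ratio -1.35). It had quartiles of 54.4, 408 and 784 CPM in refed and 450, 1058 and 1902 CPM in fasted cells. Pdcd4, an inhibitor of translation, averaged 155 CPM in refed, 486 CPM in fasted and 140 CPM in ad libitum cells (-1.62). Of these, Zfp36l2 and Pdcd4 passed 2-fold under every alternative, and Bcl2 was at -0.95 among cells of 4000 to 16000 UMIs. The 14 measured genes of the IL-2, IL-15 and STAT5 response, which hold Bcl2, were lower for 11 members with a median of -0.35, but 0.06 among cells of 4000 to 16000 UMIs.

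Of the 12 named lower genes, Ahr and Plaur had the ratios farthest below 0, at low levels in refed cells. Ahr, the aryl hydrocarbon receptor that senses tryptophan metabolites and is used by tissue-resident lymphocytes, averaged 9.51 CPM in refed, 85.8 CPM in fasted and 42.0 CPM in ad libitum cells (log2 ratio -2.65). It had 13 UMIs in refed and 311 in fasted cells, and was seen in 2.35% of thinned refed and 12.4% of thinned fasted cells, against 1.76% of naive spleen cells. Plaur, the urokinase receptor, averaged 9.86 CPM in refed, 51.4 CPM in fasted and 33.2 CPM in ad libitum cells (-1.92). Monocytes and neutrophils express it strongly, and the summed levels of their markers were lower in refed cells as given above. Cells with 3 or more UMIs of monocyte or macrophage markers were more frequent among refed cells, at 22.1% against 12.0% of fasted cells. For neutrophil markers these shares were 0% of refed and 1.62% of fasted cells. When the 6 refed and 38 fasted cells with 3 or more UMIs of macrophage or neutrophil markers (Lyz2 and Ctss not counted, since NK cells can carry them) were left out, the log2 ratios of Ahr and Plaur were -2.73 and -2.39. Cells with fewer UMIs of these markers stayed in, and the part of myeloid cells in the 2 differences was not tested.

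The remaining named lower genes were Klrb1a, Prex1, Mir142hg, Cited4 and Ypel3. Klrb1a, a receptor of the NKR-P1 family, averaged 44.6 CPM in refed, 181 CPM in fasted and 163 CPM in ad libitum cells (log2 ratio -1.91). Prex1, an activator of the GTPase Rac, averaged 44.6 CPM in refed and 129 CPM in fasted cells (-1.44). Mir142hg, the host transcript of a microRNA of blood cells, averaged 39.9 CPM in refed and 116 CPM in fasted cells (-1.43). Cited4, a transcriptional co-activator, averaged 33.0 CPM in refed and 93.4 CPM in fasted cells (-1.37). Ypel3 averaged 57.5 CPM in refed and 146 CPM in fasted cells (-1.28). For Klrb1a the ad libitum level lay near the fasted level, which sets it apart from Cxcr4, Bcl2 and Pdcd4.

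NK receptors had no common direction, with 10 higher and 12 lower of 22 measured members and a median of -0.13 (-0.42 to 0.04 under the alternatives). Klrb1c, which encodes the NK1.1 antigen of the sort, averaged 192 CPM in refed, 490 CPM in fasted and 273 CPM in ad libitum cells (log2 ratio -1.33). Because NK1.1 protein chose the cells, only its level among sorted cells is described. Klrg1, a receptor of mature NK cells, averaged 40.8 CPM in refed and 13.7 CPM in fasted cells (1.30). Itgam, the CD11b integrin of mature NK cells, averaged 10.9 CPM in refed and 46.4 CPM in fasted cells (-1.69). Thy1, carried by activated and immature NK cells, averaged 434 CPM in refed and 165 CPM in fasted cells (1.37). Klrg1 reached the 20 CPM minimum only in refed cells, and Itgam only in fasted cells. In the summed counts Klrg1 was at 0.80, Itgam at -1.23 and Thy1 at 0.62. The activating receptor Ncr1 averaged 412 CPM in refed and 298 CPM in fasted cells (0.46). The lineage factors Eomes and Tbx21 had log2 ratios of 0.21 and 0.14. Genes of 1 maturation stage therefore did not go together, and the mature NK and immature NK lists had medians of 0.15 and 0.01, each negative under at least 1 alternative (down to -2.05 and -0.14). The Klra genes are close relatives, and their split is uncertain.

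Immediate early genes were lower in refed cells for 15 of 16 members, with 1 past 2-fold lower (against 3.21% of all genes) and a median of -0.49. Junb averaged 1595 CPM in refed and 2645 CPM in fasted cells (log2 ratio -0.73). Egr1 averaged 86.6 CPM in refed and 175 CPM in fasted cells (-0.98). Fos averaged 265 CPM in refed and 384 CPM in fasted cells (-0.53). Ier3, the 1 past 2-fold at 39.9 CPM in refed and 154 CPM in fasted cells (-1.82), was 0.23 without cells holding macrophage or neutrophil markers. The 6 measured checkpoint genes were lower for 5 members with a median of -0.43, and -0.07 with equal cluster weights. Heat shock genes were higher for 9 of 10 members with a median of 0.59. It was also higher in refed cells of spleen (0.71) and bone marrow (0.98).

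The authors' cluster numbers give the makeup of each population. Cluster 11, led by Gzmc, Gzmd, Gzme and Spp1, held 26.3% of refed (17.8 to 36.4), 6.37% of fasted (4.78 to 8.29) and 19.6% of ad libitum cells. Cluster 8 held 5.26% of refed (1.73 to 11.9), 27.7% of fasted (24.6 to 31.0) and 8.70% of ad libitum cells. Cluster 7 held 23.2% of refed, 6.74% of fasted and 34.8% of ad libitum cells, and cluster 0, led by Cxcl10 and Isg20, 29.5%, 37.6% and 6.52%. Because the clusters were built on the same transcripts, 6 of the 10 leading genes of cluster 11 are named higher genes here, and these shares are no separate finding. Depth moved with them, since cluster 11 cells had medians of 29309 UMIs in refed and 26055 UMIs in fasted cells. Among cells of 4000 to 16000 UMIs, cluster 11 held 7.84% of refed and 1.20% of fasted cells. The part of undetected doublets, and of depth, in cluster 11 was not tested.

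Within clusters, composition was held closer to fixed but cells were few. In cluster 0 (28 refed and 301 fasted cells, medians of 7931.5 and 4710 UMIs), 246 of 5392 genes (4.56%) were 2-fold higher and 398 (7.38%) 2-fold lower in refed cells. Gzmc averaged 727 CPM in refed and 174 CPM in fasted cells of cluster 0 (log2 ratio 2.03). Cxcr4 averaged 184 CPM in refed and 702 CPM in fasted cells of the same cluster (-1.90). Genes named for cluster 0 were Basp1 (2.69), Ly6a (2.14), Ms4a4c (1.92) and Klra1 (1.75) on the higher side, and Ahr (-2.76), Tcf4 (-1.93), Cxcr4 and Sap30l (-1.81) on the lower. Bcl2 averaged 441 CPM in refed and 986 CPM in fasted cells of this cluster (-1.15). All 10 named higher genes were higher and all 12 named lower genes lower in cluster 0.

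In cluster 11 (25 refed and 51 fasted cells), 318 of 4909 genes (6.48%) were 2-fold higher and 100 (2.04%) 2-fold lower in refed cells. Gzmc was high on both sides there, at 40690 CPM in refed and 29432 CPM in fasted cells (log2 ratio 0.47). Genes named for cluster 11 were Sult2b1 (1.77), Ifng (1.69, 176 CPM in refed and 51.3 CPM in fasted cells), Mt1 (1.68) and Cmtm7 (1.54), higher in refed cells. The lower ones were the replication-dependent histone Hist1h1b (-3.45, 10.2 CPM in refed and 160 CPM in fasted cells), Serpinb9b (-1.77), Nrgn (-1.59) and Pdcd4 (-1.43). Bcl2, Zfp36l2 and Tsc22d3 differed little there (-0.32, -0.49 and -0.06). In cluster 7 (22 refed and 54 fasted cells) the fasted cells had a median of 1660.5 UMIs and of 6282 genes 1100 (17.5%) were 2-fold higher and 1873 (29.8%) 2-fold lower in refed cells, so its single genes are not read. Those that the rule names there were Rpgrip1, Dctpp1, Glrx5 and Slc25a4 on the higher side and Qrfp, Tspan13, Mir142hg and Fgl2 on the lower.

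**Figure D4:**
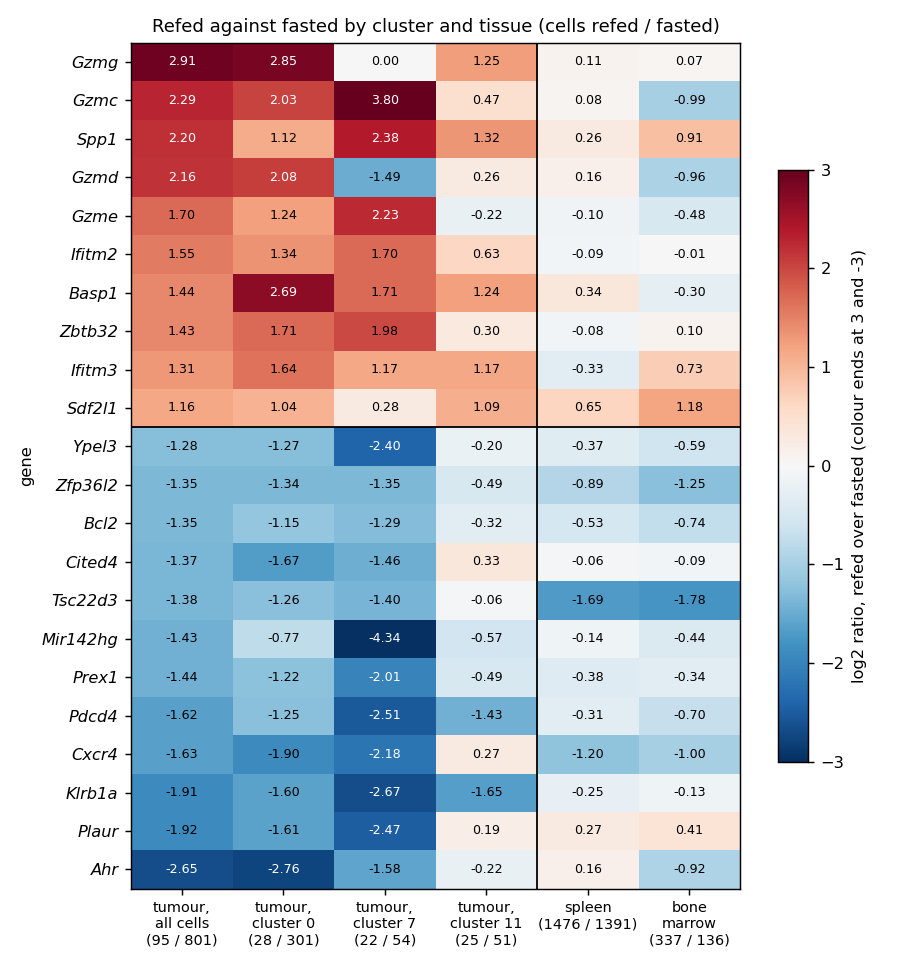
Log2 ratio, refed over fasted, of the 22 named genes (rows) in all tumour cells, in 3 of the authors' clusters within the tumour, and in spleen and bone marrow (columns, with numbers of refed / fasted cells). Red is higher and blue lower in refed cells, with colour ending at 3 and -3. The granzyme rows are red over all tumour cells and in cluster 0 and near 0 in spleen (Gzmc 0.08), with Gzmd blue in cluster 7 (-1.49), while the Tsc22d3 row is blue in tumour (-1.38), spleen (-1.69) and bone marrow (-1.78) but not in cluster 11 (-0.06).

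In the other tissues the same feeding names gave fewer or other differences. In spleen (1476 refed and 1391 fasted cells), 6 of 5486 genes (0.109%) were 2-fold higher and 8 (0.146%) 2-fold lower, and in bone marrow (337 and 136 cells) 144 (2.48%) and 220 (3.79%) of 5806. Cells were far more numerous in spleen, so its ratios carry less sampling scatter, and the counts cannot be set against each other as sizes of response. Tsc22d3 averaged 78.7 CPM in refed and 265 CPM in fasted spleen cells (log2 ratio -1.69), and 49.9 CPM in refed and 184 CPM in fasted bone marrow cells (-1.78). Cxcr4 averaged 28.5 CPM in refed and 72.0 CPM in fasted spleen cells (-1.20), and 59.0 CPM in refed and 123 CPM in fasted bone marrow cells. Zfp36l2 had log2 ratios of -0.89 in spleen and -1.25 in bone marrow, Calr 1.01 and 1.26, and Xcl1 1.20 and 1.61. These genes thus had 1 direction in the 3 tissues.

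Other differences stood in the tumour without a counterpart of that size elsewhere. Gzmc averaged 146 CPM in refed and 138 CPM in fasted spleen cells (log2 ratio 0.08), and 78.0 CPM in refed and 160 CPM in fasted bone marrow cells (-0.99). Ifitm2 had ratios of -0.09 in spleen and -0.01 in bone marrow, and Klrb1a -0.25 and -0.13. Ahr was at 0.16 in spleen and -0.92 in bone marrow, where its levels were 7.99 CPM in refed and 19.5 CPM in fasted cells. Glycolysis had medians of 0.03 in spleen and 0.49 in bone marrow. Whether a difference in the tumour differs from that in another tissue cannot be tested with 1 sample a group.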

How the data were processed

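The authors deposited counts of UMIs per cell and gene, built with seqc per the labels' protocol and on mm10 per the submitters' processing notes, with a hashtag classification, a tag list and cluster numbers. The hashtag classification and clustering methods are not stated in the labels or files used. Doublets called by the authors were left out, and no further caller was run. The matrix had 16800 gene columns; 11 repeated symbols were summed, and 16278 of 16789 symbols matched GENCODE M21, the source of loci. Columns used by no sample numbered 0.

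Each cell was scaled to 1000000 UMIs and averaged within its population. Log2 ratios used a pseudocount of 5 and genes at 20 CPM or more in 1 of the populations. Clusters with at least 10 cells a side were compared. The computation was tested on simulated data. Named genes needed 50 CPM, detection in 10% of cells (25% within clusters, where 4 a side are named) and 2-fold in the mean, in summed counts and without the highest cell; ranked by the smallest of the 3, at most 12 a side are named, besides up to 4 members per list and chosen NK genes. The 31 lists, the markers and the groups compared were chosen with earlier results of these data known.

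Alternatives were summed counts, TMM factors (edgeR 4.0.16), totals without ribosomal and mitochondrial genes, other pseudocounts and minimum levels, each gene's highest cell left out, thinned cells, depth windows, cells with 3 or more UMIs of other cells' markers (H2-Aa, Cd74, Ctss, Lyz2 and Gata2 not counted) left out, and equal or fasted cluster weights. After the data were seen, 4 were added: cells with other markers apart from T cells, cells with macrophage or neutrophil markers, cluster 11, or cells below 2000 UMIs left out. Intervals are exact. The tools were matplotlib 3.10.9, pandas 2.3.3, scipy 1.17.1, numpy 2.4.6 and Python 3.11.15. Promoters are from RefSeq, GRCm38.p6.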

Additional observations from a re-analysis of the deposited data

How the results depend on the processing

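No paired analysis was possible because each feeding group in the tumour is 1 hashtagged population, with no replicate numbers and no test. With 95 refed cells, counts of genes past 2-fold depended on the setting. Against 151 higher and 176 lower genes in refed cells, summed counts gave 34 and 65, a pseudocount of 20 gave 40 and 39, a minimum of 50 CPM gave 54 and 50, and leaving out cells below 2000 UMIs gave 85 and 109. Thinning gave 283 and 449, and leaving out each gene's highest cell 43 and 293. Lower genes numbered 279 with totals free of ribosomal and mitochondrial genes, 276 with a pseudocount of 1, 302 with a 10 CPM minimum and 355 with equal cluster weights. Higher genes numbered 228 without cells above 3 times the median UMIs. Leaving out cells with other markers removed 80 refed and 613 fasted cells and gave 1070 and 2052. With T cell markers allowed it gave 273 and 346. Within cluster 0, the highest cell left out gave 68 and 745, and thinning 705 and 1062. Cluster 7 had 660 higher genes without highest cells, and 1829 higher and 3013 lower after thinning. Cluster 11 had 98 and 59 in summed counts, 49 higher without highest cells, and 1560 and 972 after thinning. At 4000 to 16000 UMIs, cluster 0 held 47.1% of refed and 43% of fasted cells, cluster 11 7.84% of refed and 1.2% of fasted cells, and clusters 7 and 8 held 1.2% and 39% of fasted cells.

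The median ratio of all genes shifted by -0.14 with highest cells left out and by -0.35 with other-marker cells left out, and by at most 0.05 elsewhere. Among named genes and list members, 25 values past 2-fold took the other sign, 397 moved by more than counting error and 1230 did not. Gzme was at -1.21 at 4000 to 16000 UMIs, -0.74 without the deepest cells, -0.18 with equal and -0.12 with fasted cluster weights, and Gzmg at -0.09 at 4000 to 16000 UMIs. With all other-marker cells left out, Hk2 was at -2.77, Hspa1b -2.32, Tk1 -1.65, Bnip3 -1.31, Rrm1 -1.06 and Ankrd37 -0.82. Hspa1b was also at -0.46 without its highest cell, -0.80 thinned, -1.77 at 4000 to 16000 UMIs (Hspa1a -0.77), -0.20 with other-marker cells apart from T cells left out, -0.60 without macrophage or neutrophil markers and -0.62 without cells below 2000 UMIs. Thinned, Tk1 was at -1.25, Mt1 at -1.02 and Kdm3a at 0.07, and without cluster 11 Mt1 was at -0.62. Ier3 was at 0.18 with other-marker cells apart from T cells left out, 0.23 without macrophage or neutrophil markers and 0.47 with fasted cluster weights. Medians of 16 of the 31 lists kept 1 sign under every setting. The causes of these moves were not tested.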
